A study of Mus musculus with 5 samples.

Results

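The genes of Wnt signalling were followed through cultured mouse epidermal stem cells with and without Angptl4. Members were taken by gene symbol and comprised the Wnt ligands, the Frizzled and LRP receptors, the ligand-processing genes Porcn and Wls, the secreted antagonists, the R-spondins, the receptor ligases Rnf43 and Znrf3, the Axin, Naked and Apcdd1 feedback genes and the TCF/LEF factors. The deposited table held 52 of them among 17657 genes, and 42 had enough counts to be tested. Sp5, named by the same rule, was not analysed here.

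Wnt proteins are secreted signals that carry a lipid, attached by the acyltransferase Porcn and needed for their release by the carrier Wls. At the receiving cell they bind a Frizzled receptor together with Lrp5 or Lrp6, which stops the Axin scaffold from directing beta-catenin to destruction, and beta-catenin then acts with TCF/LEF factors on target genes such as Axin2. Frizzled proteins also serve beta-catenin-independent signalling through planar cell polarity genes. In skin, basal keratinocytes make Wnt ligands themselves, and the pathway is known for its roles in hair follicle formation and in the maintenance of epidermal stem cells.

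The KO group held 2 libraries of epidermal stem cells from Angptl4 knockout mice and the WT group held 3 libraries from wild-type mice. The donors were C57BL/6 males, with 8 weeks given as the age, and every culture of skin cells used KGM2, a keratinocyte growth medium. The labels do not say which part of Angptl4 was removed, whether it was removed in every tissue, or which animal or culture each library stands for. The p-values here therefore reflect library-to-library spread alone, and that spread may be technical. Angptl4, which encodes a secreted inhibitor of lipoprotein lipase, was at 0.86 and 1.11 TPM (a transcript level scaled for length and library) in the KO libraries, against 7.34, 6.09 and 4.34 TPM in the WT libraries. It was lower in both KO libraries (log2 change -2.56 ± 0.32 SE, adjusted p = 0.00458), and this call was lost when each genotype was given its own spread (adjusted p = 0.127, range over its alternatives 5.52e-09 to 0.127).

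Libraries held 20283084 to 20773407 expected counts. The KO pair differed far more than the WT libraries did, with a biological coefficient of variation of 28.9% in KO and 5.22% in WT. Over all 12957 tested genes 20.4% were higher and 20.4% lower in KO. Without WT1, WT2 or WT3 these shares were 7.62, 8.81 and 8.68% higher and 7.6, 8.94 and 8.77% lower. The marker counts that follow are to be read beside these shares. Of 12 basal keratinocyte markers 3 rose, 2 fell and 7 did not pass (without WT1, WT2 or WT3, 0, 0 and 1 rose and 2 fell each time). Krt14, a keratin of basal cells, was abundant and did not pass, at 16275 to 19987 TPM in KO and 17116 to 17920 TPM in WT. The epidermal transcription factor gene Trp63 was at 189 and 164 TPM in KO, against 333, 332 and 333 TPM in WT, and Itga6, an integrin of basal cells, at 216 and 199 TPM in KO, against 421, 401 and 369 TPM in WT. These were the markers that fell, by 0.73 and 0.91 on the log2 scale. Among the 3 that rose was the cadherin gene Cdh1 (adjusted p = 0.00703), a call lost without WT1, WT2 or WT3 (adjusted p = 0.055 to 0.0604). Krt15, a keratin of bulge and basal cells, was low in every library and rose (3.08 and 1.66 TPM in KO, against 0.11, 0.17 and 0.58 TPM in WT), a call lost without WT1 or WT2 (adjusted p = 0.0649 and 0.0711, range over its alternatives 0.000965 to 0.0711). Markers of fibroblasts were low and higher in KO: 6 of 11 tested markers rose and none fell (median log2 change 2.70), and the 16 markers summed to 122.3 and 56.82 TPM in KO1 and KO2, against 45.14, 45.4 and 41.13 TPM in WT1, WT2 and WT3. Of those 16, none was at 0 in both KO libraries and 1, Dpt, was at 0 in all WT libraries. A marker near 0 in WT could be tested only through its KO counts, and could then not be called lower. This limits what the absence of falls and the median over tested markers show. Without WT1, WT2 or WT3 the 6 became 2, 3 and 2, and without KO1 and KO2 they became 5 and 10. The contractile and pericyte list rose in 4 of 5 tested genes, with Acta2, smooth muscle actin, at 1606 and 537 TPM in KO and 222, 219 and 251 TPM in WT. Of 9 listed genes only those 5 had enough counts to be tested. The 4 that rose became 2 whenever a WT library was dropped. Cspg4 and Notch3 held, and Acta2 was lost each time (adjusted p = 0.0611 to 0.0676). Pdgfrb, which is in the fibroblast list as well, was also lost each time. Of 10 dermal papilla markers only 2 had enough counts to be tested. Both rose, and the 2 became 0, 1 and 1 without WT1, WT2 or WT3. All 10 summed to 18.28 and 5.87 TPM in KO and 1.92, 2.4 and 1.67 TPM in WT. The limit on falls given for fibroblast markers applies here too. Melanocyte markers had 1 of 6 higher and immune markers 1 of 4, endothelial markers had 1 higher and 1 lower of 4, and Schwann cell markers had 1 of 3 lower. With any WT library left out the endothelial and Schwann cell calls were lost, the immune call was lost without WT1 or WT3, and the melanocyte call held. In bulk RNA, more cells of a type and more RNA per cell cannot be told apart. The part of these other markers in the Wnt results was not tested.

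In the KO cells 14 of 42 tested members rose and 2 fell, which is 33.3% higher and 4.76% lower, where 20.4% of all 12957 tested genes were higher in KO and 20.4% were lower. In either direction 38.1% of members and 40.8% of all tested genes passed, so the overall share of members lay near the background. The median log2 change was 0.18 for the members and 0.02 for all tested genes. Those that rose were the ligands Wnt10a, Wnt7b, Wnt16, Wnt11 and Wnt6, the receptors Fzd6, Fzd2, Fzd7, Fzd1 and Fzd8, both ligand-processing genes Porcn and Wls, the feedback gene Axin2 and the factor Tcf7l1. Those that fell were the ligand Wnt7a and the receptor ligase Znrf3.

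Like the share of all tested genes, the count of higher members fell whichever WT library was left out. It was 5, 5 and 4 without WT1, WT2 or WT3, where 7.62, 8.81 and 8.68% of all tested genes were higher. It was 15 without KO1 and 22 without KO2, where 29.3 and 30% of tested genes were higher. The count of lower members was 2 with WT1, WT2 or WT3 left out, where 7.6, 8.94 and 8.77% of tested genes were lower. It was 12 without KO1 and 5 without KO2, where 30.5 and 30.9% were lower. Calls for 6 of the 16 members held with each library left out in turn, namely Fzd7, Fzd1, Porcn, Tcf7l1, Wnt7a and Znrf3. The share of all tested genes whose calls held with each library left out was not counted. Those 6 calls therefore have no background share beside them. The libraries of the groups did not overlap for 23 members, where 66.4% of all tested genes did not overlap. KO lay above WT for 16 members and below for 7, and for 32.5 and 34% of all tested genes. Of those 7, Wnt3 and Wif1 were not apart in TPM.

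**Figure D1:**
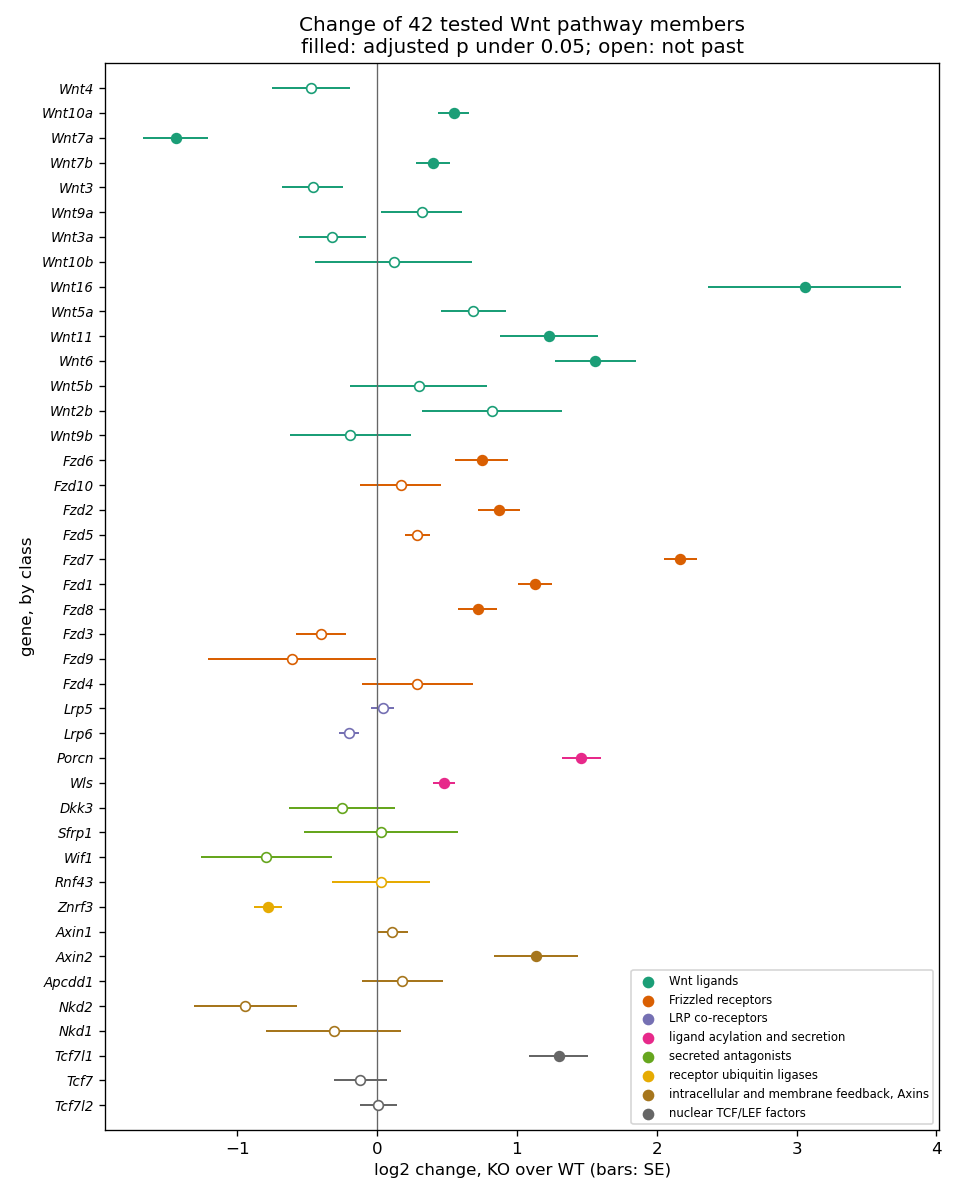
Log2 change (KO over WT, horizontal axis) of the 42 tested members, listed down the page by class, with bars for the standard error. Filled points passed an adjusted p of 0.05 and open points did not. Wnt16 lies farthest to the right with the widest bar, at 3.06 ± 0.69, Fzd7 is at 2.17 ± 0.12 and Wnt7a lies farthest to the left at -1.44 ± 0.23.

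Promoter sequence is shown for 4 of the 6 members whose calls held with every library left out and for Axin2, the feedback gene that is the usual readout of beta-catenin signalling. Each window runs from 250 bases before to 50 bases after an annotated start in RefSeq (GRCm38.p6), read 5′ to 3′ on the gene's strand. Capitals mark the TCF/LEF core CTTTGA or CTTTGT on either strand, and no matches overlap in the windows shown. Porcn and Znrf3 are named only.
Fzd7, chr1:59481897-59482196, plus strand: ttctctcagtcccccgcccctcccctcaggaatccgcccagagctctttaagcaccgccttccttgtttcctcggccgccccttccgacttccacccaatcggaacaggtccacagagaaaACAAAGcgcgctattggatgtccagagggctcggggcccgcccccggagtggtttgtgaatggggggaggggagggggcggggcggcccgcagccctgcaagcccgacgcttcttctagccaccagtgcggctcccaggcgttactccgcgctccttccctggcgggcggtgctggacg
Fzd1, chr5:4758167-4758466, minus strand: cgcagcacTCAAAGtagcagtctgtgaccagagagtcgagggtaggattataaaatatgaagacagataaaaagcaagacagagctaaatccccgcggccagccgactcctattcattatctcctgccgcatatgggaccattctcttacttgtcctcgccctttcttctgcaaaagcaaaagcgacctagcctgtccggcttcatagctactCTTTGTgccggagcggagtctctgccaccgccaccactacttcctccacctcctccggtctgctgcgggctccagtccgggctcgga
Tcf7l1, chr6:72788996-72789295, minus strand: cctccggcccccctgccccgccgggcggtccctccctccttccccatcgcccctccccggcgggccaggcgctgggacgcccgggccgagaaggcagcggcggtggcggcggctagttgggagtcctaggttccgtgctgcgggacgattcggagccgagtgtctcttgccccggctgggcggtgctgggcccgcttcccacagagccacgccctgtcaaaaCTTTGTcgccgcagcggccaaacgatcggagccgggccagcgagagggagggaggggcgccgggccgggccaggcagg
Axin2, chr11:108920099-108920398, plus strand: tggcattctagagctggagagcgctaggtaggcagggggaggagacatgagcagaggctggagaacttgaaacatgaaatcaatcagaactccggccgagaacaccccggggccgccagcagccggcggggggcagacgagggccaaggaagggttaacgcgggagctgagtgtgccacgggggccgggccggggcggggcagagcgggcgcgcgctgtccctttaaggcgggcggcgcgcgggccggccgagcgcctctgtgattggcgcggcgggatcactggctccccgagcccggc
Wnt7a, chr6:91411304-91411603, minus strand: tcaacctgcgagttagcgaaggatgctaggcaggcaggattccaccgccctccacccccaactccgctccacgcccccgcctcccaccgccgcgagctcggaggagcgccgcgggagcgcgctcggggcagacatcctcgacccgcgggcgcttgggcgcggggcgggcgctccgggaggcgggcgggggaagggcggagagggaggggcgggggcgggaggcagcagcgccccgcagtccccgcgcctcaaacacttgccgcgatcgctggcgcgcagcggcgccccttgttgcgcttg

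The Fzd7 window holds CTTTGT on the reverse strand 129 bases before the start, and the Tcf7l1 window holds it on the forward strand 28 bases before. The Fzd1 window holds CTTTGA on the reverse strand at 242 bases and CTTTGT at 37 bases before the start. The windows of Axin2 and Wnt7a hold neither. However, the Axin2 window lies inside the gene, whose deposited coordinates begin at 108917828. The Fzd7 window also lies inside deposited coordinates, which begin at 59471576. Sequence around those outer starts was not scanned, so the absence of a match covers the printed Axin2 window only. CTTTGA was found in 4 of 42 member windows (9.52%) and in 16% of 32851 RefSeq windows, and CTTTGT in 7 of 42 (16.7%) and in 18.7% of them. RefSeq windows were matched for 33 of the 52 members. Member windows were rich in G and C, with a median of 66.5%, where the median over all windows was 52.7%.

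Porcn, on chromosome X (8193846 to 8206546), was the most abundant member in the KO cells. Its level was 583 and 428 TPM in KO1 and KO2, against 186, 191 and 196 TPM in WT1, WT2 and WT3. Both KO libraries thus stood well above the narrow WT range. The rise was 2.74-fold (log2 change 1.46 ± 0.14 SE, adjusted p = 0.00278) and rested on 17478 KO and 9589 WT counts. Wls, the carrier that takes acylated Wnt to the cell surface (chromosome 3, 159839650 to 159938666), was at 186 and 183 TPM in KO and at 141, 135 and 136 TPM in WT. The groups did not overlap and the KO pair was close together, but the rise was 1.4-fold (log2 change 0.48 ± 0.08, adjusted p = 0.00761). It passed without WT1 (adjusted p = 0.046) and was lost without WT2 or WT3 (adjusted p = 0.0521 and 0.0522, range over its alternatives 3.77e-06 to 0.112).

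Of 15 tested ligands 5 rose, 1 fell and 9 did not pass, where 20.4% of all tested genes were higher and 20.4% lower. Without 1 WT library the shares of all tested genes were 7.6 to 8.94% in each direction. Dropping any WT library left 0 higher and 1 lower, and there were 5 higher and 5 lower without KO1 and 7 higher and 1 lower without KO2. Ligand RNA was dominated by Wnt4 and Wnt10a in every library. Together they made up 71.5 and 74% of the summed Wnt ligand TPM in KO1 and KO2 and 68.3, 69.2 and 69.7% in the WT libraries. Wnt4, a ligand of epithelia that signals both with and without beta-catenin, was at 253 and 131 TPM in KO, against 257, 278 and 278 TPM in WT. KO1 lay beside the WT libraries in Wnt4 level while KO2 was far lower, and the gene did not pass (adjusted p = 0.222). Wnt10a, a canonical ligand of epidermis and skin appendages (chromosome 1, 74788556 to 74804176), was at 284 and 231 TPM in KO and at 184, 177 and 174 TPM in WT. It rose by 1.46-fold (log2 change 0.55 ± 0.11, adjusted p = 0.014), a call lost without WT1, WT2 or WT3 (adjusted p = 0.065 to 0.0697, range over its alternatives 2.62e-05 to 0.0939). Wnt10a was thus the leading ligand in both KO libraries and Wnt4 in all WT libraries, the ratio of Wnt10a to Wnt4 TPM being 1.12 and 1.76 in KO1 and KO2 and 0.715, 0.638 and 0.627 in WT1, WT2 and WT3. The difference in this ratio was not tested.

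The paralogs Wnt7a and Wnt7b moved apart. Wnt7a, a ligand made by epithelia (chromosome 6, 91363981 to 91411353), was at 38.8 and 23.0 TPM in KO and at 90.6, 83.5 and 81.2 TPM in WT. Even the higher KO library was far below the lowest WT library. The fall was 2.71-fold (log2 change -1.44 ± 0.23, adjusted p = 0.00822), and it passed in all 16 alternatives (adjusted p = 2.57e-07 to 0.0452). Wnt7b (chromosome 15, 85535437 to 85593709), which encodes a close relative, was at 57.0 and 46.3 TPM in KO, against 36.4, 40.4 and 42.3 TPM in WT. Its rise was small (log2 change 0.40 ± 0.12, adjusted p = 0.0448) and was lost without WT1, WT2 or WT3 (adjusted p = 0.0948 to 0.147, range over its alternatives 0.00085 to 0.147). Wnt7a TPM was 0.681 and 0.496 times that of Wnt7b in KO1 and KO2, and 2.49, 2.07 and 1.92 times in the WT libraries.

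Wnt16, Wnt11 and Wnt6 were low in WT and rose by larger factors. Wnt16, a ligand known from skin and bone (chromosome 6, 22288178 to 22298522), was at 21.8 and 4.7 TPM in KO and at 1.44, 2.19 and 1.01 TPM in WT. KO1 set most of this value, with 386 counts to 87 in KO2 and 19 to 40 in the WT libraries. The fitted log2 change was 3.06 ± 0.69 (adjusted p = 0.0205), 1.6 without KO1 and 3.78 without KO2, and it no longer passed once any WT library was dropped (adjusted p = 0.0628 to 0.086, range over its alternatives 1.54e-05 to 0.086).

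Wnt11, known mainly for beta-catenin-independent signalling, was at 4.73 and 2.22 TPM in KO and at 1.38, 1.73 and 1.83 TPM in WT. It rose by 2.35-fold (log2 change 1.23 ± 0.35, adjusted p = 0.0385), and the call was lost without WT1, WT2, WT3 or KO1. The adjusted p was 0.109 to 0.129 without a WT library and 0.0813 without KO1, where the log2 change was 0.63 (range over its alternatives 0.00049 to 0.136). Wnt6, an epithelial ligand, was at 3.77 and 2.63 TPM in KO and at 1.31, 0.85 and 1.29 TPM in WT, so that the groups were well apart. Its rise was 2.95-fold (log2 change 1.56 ± 0.29, adjusted p = 0.0123) and narrowly lost without WT1, WT2 or WT3 (adjusted p = 0.0506 to 0.0538, range over its alternatives 0.00085 to 0.0542). Wnt6 and Wnt10a are neighbours on chromosome 1, 3.23 kb apart in the deposited coordinates, and both rose. The other neighbouring ligand pairs, Wnt3a with Wnt9a and Wnt9b with Wnt3 on chromosome 11, held no member that passed.

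The remaining 9 tested ligands did not pass. Wnt3, a canonical ligand of the follicle, was at 30.6 and 17.3 TPM in KO and at 30.6, 33.9 and 30.7 TPM in WT. Its coordinates overlap those of Wnt9b and its counts were not whole, so reads may be divided between them. Wnt9a was at 27.9 and 14 TPM in KO and at 18.9, 16.3 and 16.2 TPM in WT, with KO1 above and KO2 below the WT libraries. Wnt10b, a canonical ligand of the hair germ, showed the same split at 13.3 and 3.13 TPM in KO and 7.61, 8.24 and 7.83 TPM in WT. Wnt3a was at 10.4 and 6.2 TPM in KO and at 11.1, 11 and 9.44 TPM in WT. Wnt5a, the main beta-catenin-independent ligand of mesenchyme, was at 4.36 and 6.28 TPM in KO, against 4.18, 3.16 and 2.99 TPM in WT, and narrowly missed the threshold (log2 change 0.69 ± 0.23, adjusted p = 0.0587). Wnt5b, Wnt2b and Wnt9b stayed at or below 1.24 TPM in every library. Wnt2 and Wnt8a, with 0 to 4 counts a library, were not tested.

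**Figure D2:**
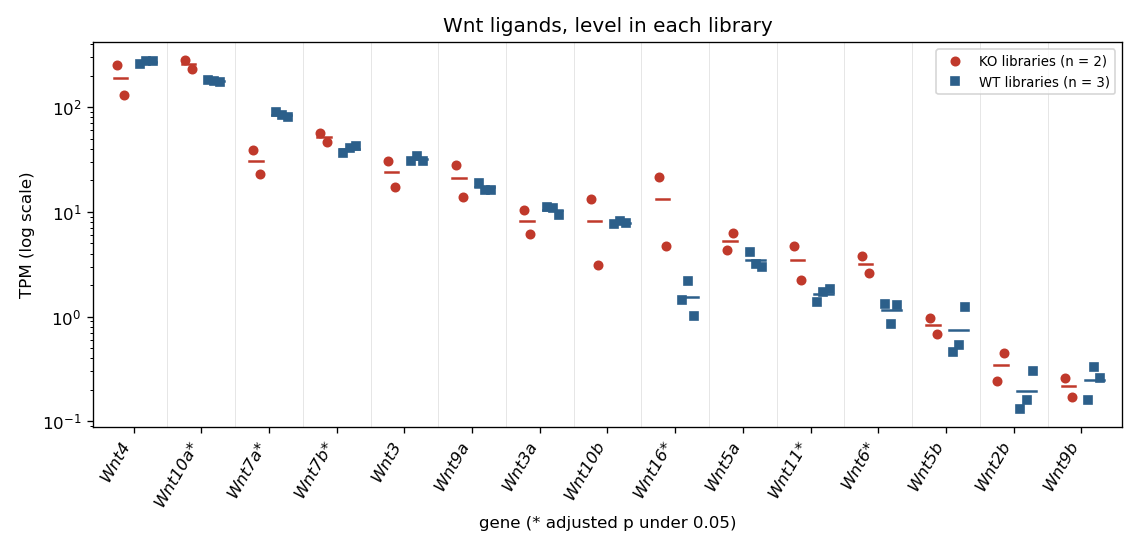
Level of each of the 15 tested Wnt ligands in TPM on a log axis, with a circle for each KO library, a square for each WT library and a line at each group's mean. Asterisks mark genes with an adjusted p under 0.05. Wnt7a lies lower in both KO libraries, at 38.8 and 23.0 TPM, and Wnt10b shows KO1 and KO2 on opposite sides of the WT squares.

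Among Frizzled receptors 5 of 10 tested rose and none fell, where 20.4% of all tested genes were higher and 20.4% lower. Without 1 WT library the shares of all tested genes were 7.6 to 8.94% in each direction. Summed Frizzled TPM was 224.5 and 156 in KO1 and KO2, against 116, 116.2 and 115.5 in WT1, WT2 and WT3. With WT1, WT2 or WT3 left out the 5 became 2, 3 and 2. They became 5 without KO1 and 7 without KO2, with 1 lower each time. Fzd6, which acts in planar cell polarity and hair orientation, made up about the same share of that sum in KO (53.8 and 49.7%) and WT (50.6, 51.3 and 50.5%).

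Fzd7, a receptor that transmits both canonical and non-canonical signals (chromosome 1, 59471576 to 59492605), had the smallest p of all members. It was at 15.4 and 13.8 TPM in KO and at 3.7, 2.99 and 3.22 TPM in WT. The KO libraries were close to each other and far above WT. The rise was 4.49-fold (log2 change 2.17 ± 0.12, adjusted p = 0.00128), was 2.08 without KO1 and 2.25 without KO2 on the log2 scale, and passed in all 16 alternatives (adjusted p = 9e-32 to 0.0221). Fzd7 made up 6.85 and 8.87% of Frizzled TPM in KO1 and KO2 and 3.19, 2.57 and 2.79% in the WT libraries. Fzd1, its near relative (chromosome 5, 4753839 to 4758216), was at 8.78 and 9.78 TPM in KO, against 4.68, 4.21 and 3.98 TPM in WT. It too rose in both KO libraries by similar amounts, 2.19-fold in all (log2 change 1.13 ± 0.12, adjusted p = 0.00322), and passed in all 16 alternatives (adjusted p = 4.16e-10 to 0.0392).

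Fzd2, the third gene of that subfamily, was at 32.4 and 23.1 TPM in KO and at 15.2, 16.1 and 15 TPM in WT. Its rise was 1.82-fold (log2 change 0.87 ± 0.15, adjusted p = 0.0106), passed without WT2 (adjusted p = 0.049) and was lost without WT1 or WT3 (adjusted p = 0.0566 and 0.0544, range over its alternatives 1.44e-05 to 0.057). Fzd6 was at 121 and 77.5 TPM in KO and at 58.7, 59.7 and 58.4 TPM in WT. Both KO libraries were above WT, with KO1 the higher, and the rise was 1.69-fold (log2 change 0.75 ± 0.19, adjusted p = 0.0288). It was lost without WT1, WT2 or WT3 (adjusted p = 0.0968 to 0.101, range over its alternatives 3.65e-06 to 0.101), and was 0.38 without KO1 and 1.06 without KO2 on the log2 scale. Fzd8, a receptor for canonical ligands on chromosome 18, was at 4.94 and 5.29 TPM in KO and at 3.4, 3.14 and 2.9 TPM in WT. It rose by 1.65-fold (log2 change 0.72 ± 0.14, adjusted p = 0.0143), a call lost without WT1, WT2 or WT3 (adjusted p = 0.0573 to 0.07, range over its alternatives 0.0022 to 0.138).

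Fzd10 was at 29.2 and 14.7 TPM in KO and at 19.4, 18.9 and 21.2 TPM in WT, so that KO1 stood above and KO2 below the WT libraries. Fzd5 was at 11.4 and 9.99 TPM in KO, against 8.69, 9.23 and 8.64 TPM in WT, and did not pass although the groups were apart (log2 change 0.29 ± 0.09, adjusted p = 0.0524). Fzd3, Fzd4 and Fzd9 did not exceed 1.37 TPM in any library. Neither co-receptor passed. Lrp5 was at 47.1 and 45.8 TPM in KO and at 48.5, 44.0 and 45.2 TPM in WT, inside the WT range (log2 change 0.04 ± 0.08, adjusted p = 0.695). Lrp6 was at 15 and 15.8 TPM in KO and at 18.8, 17.7 and 17.7 TPM in WT, a log2 difference of -0.20 ± 0.07 that did not pass (adjusted p = 0.0675).

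**Figure D3:**
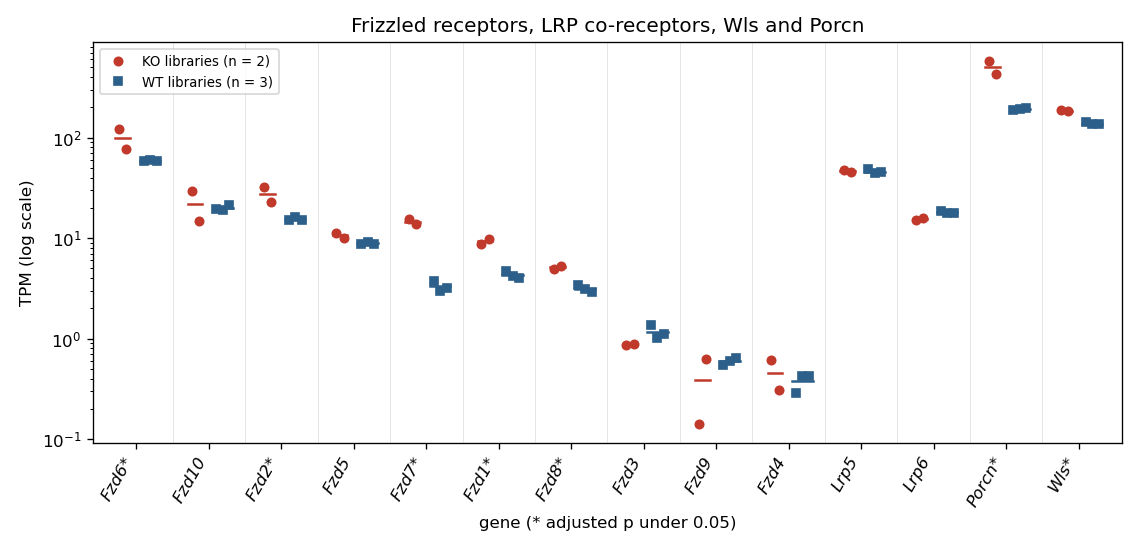
Level of the Frizzled receptors, the LRP co-receptors, Porcn and Wls in TPM on a log axis, with circles for KO libraries, squares for WT libraries and lines at group means. Asterisks mark genes with an adjusted p under 0.05. Porcn, Fzd7, Fzd1 and Fzd2 lie above all WT squares in both KO libraries, while Lrp5 lies at 47.1 and 45.8 TPM among the WT values.

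Dkk1 and Sfrp4 were not among the members, and the secreted inhibitor gene Sostdc1 is given with the further lists below. Most of the 8 secreted antagonists that were members had little RNA. Only Dkk3, a divergent Dickkopf family member expressed by many epithelia, was abundant, at 78.4 and 30.8 TPM in KO and 69.2, 65.1 and 63.7 TPM in WT. KO1 was the highest and KO2 the lowest of the 5 libraries, and the gene did not pass (adjusted p = 0.62). Sfrp1, a Frizzled-like decoy that binds Wnt proteins, split in the same way at 3.54 and 0.87 TPM in KO and 2.16, 2.35 and 2.07 TPM in WT (adjusted p = 0.975). Wif1, a further Wnt-binding inhibitor, was below 1 TPM in every library. Dkk2, Dkk4, Sfrp2, Sfrp5 and the Wnt deacylase gene Notum had 0 to 6 counts a library and were not tested. The agonists Rspo1 and Rspo3, which protect Frizzled receptors from removal, had 0 to 4 counts a library, and a count of 0 allows up to 3 counts.

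The ligases that R-spondins hold in check differed from each other. Znrf3, a membrane ubiquitin ligase that removes Frizzled receptors from the surface (chromosome 11, 5276329 to 5444847), was at 3.95 and 4.48 TPM in KO, against 7.1, 7.53 and 7.55 TPM in WT. Both KO libraries were well below the WT range, and the fall was 1.71-fold (log2 change -0.78 ± 0.10, adjusted p = 0.00482). The call held with each library left out (adjusted p = 0.0342 to 0.0355 without a WT library, range over its alternatives 4.21e-07 to 0.0502). Its paralog Rnf43 was at 9.51 and 3.96 TPM in KO and at 6.67, 6.73 and 6.62 TPM in WT. The KO libraries lay on opposite sides of WT, and Rnf43 did not pass (adjusted p = 0.949).

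Among feedback genes Axin2, the scaffold that beta-catenin signalling induces (chromosome 11, 108917828 to 108950783), was higher in KO. It was at 18.2 and 9.09 TPM in KO and at 6.51, 6.77 and 5.65 TPM in WT. KO1 was at 2.02 times KO2, and both were above WT. The rise was 2.21-fold (log2 change 1.14 ± 0.30, adjusted p = 0.0312), was 0.54 without KO1 and 1.57 without KO2 on the log2 scale, and was lost without WT1, WT2 or WT3 (adjusted p = 0.0915 to 0.11, range over its alternatives 1.76e-05 to 0.11). Axin1, the constitutive scaffold, was at 32.9 and 41.5 TPM in KO and at 33.8, 34.6 and 35.9 TPM in WT and did not pass (adjusted p = 0.448). Apcdd1, a membrane inhibitor of Wnt signalling in hair follicles, was at 4.63 and 2.6 TPM in KO and at 2.77, 3.8 and 3.15 TPM in WT, with KO libraries on both sides of WT. Nkd2, an inhibitor of Dishevelled, was at 0.95 and 0.5 TPM in KO and at 1.65, 1.52 and 1.08 TPM in WT (log2 change -0.94 ± 0.37, adjusted p = 0.0953). Nkd1 did not exceed 1 TPM.

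Of the nuclear factors Tcf7l1, which represses Wnt targets and marks follicle stem cells, changed and the others did not pass. Tcf7l1 (chromosome 6, 72626371 to 72789045) was at 11.5 and 9.22 TPM in KO and at 3.55, 3.93 and 5.24 TPM in WT. Both KO libraries exceeded every WT library. The rise was 2.47-fold (log2 change 1.3 ± 0.21, adjusted p = 0.00809) and passed in all 16 alternatives (adjusted p = 8.58e-06 to 0.0457). Tcf7l2 was at 4.44 and 4.02 TPM in KO and at 4.02, 4.25 and 4.6 TPM in WT (log2 change 0.01 ± 0.13, adjusted p = 0.97). Tcf7 was at 3.78 and 5.69 TPM in KO and at 5.22, 5.42 and 5.08 TPM in WT (adjusted p = 0.633). Lef1, the factor of the hair matrix, had 0 to 3 counts a library and was not tested.

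**Figure D4:**
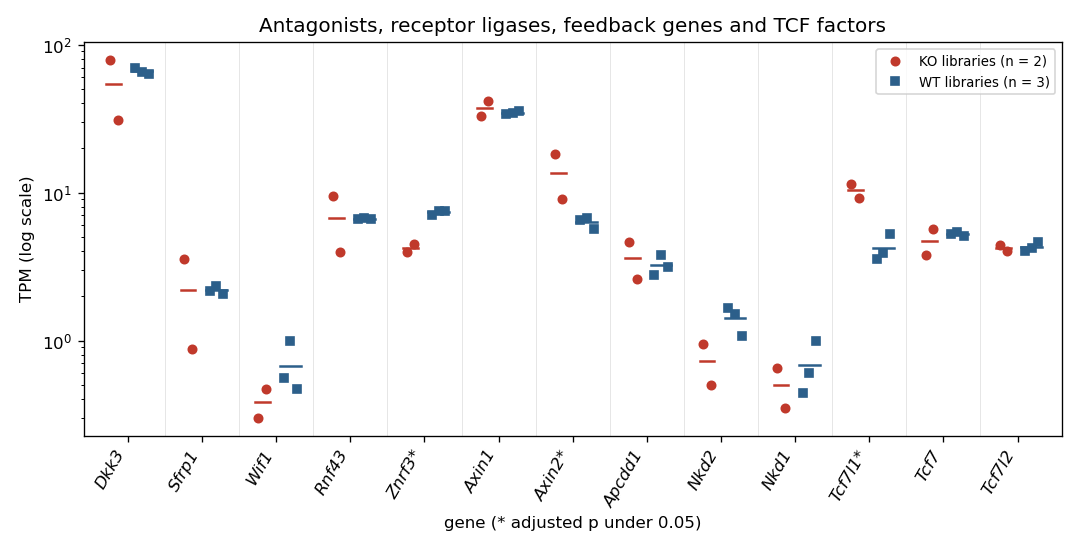
Level of the tested antagonists, receptor ligases, feedback genes and TCF factors in TPM on a log axis, with circles for KO libraries, squares for WT libraries and lines at group means. Asterisks mark genes with an adjusted p under 0.05. Znrf3 lies lower and Axin2 and Tcf7l1 higher in both KO libraries, while Dkk3, Sfrp1 and Rnf43 have KO1 and KO2 on opposite sides of WT.

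The KO libraries did not carry the same Wnt profile. Of the 42 tested members 31 (73.8%) were higher in KO1 than in KO2, where 49.8% of all tested genes were. The median log2 change against the WT mean was 0.52 in KO1 and 0.02 in KO2 for the members, and -0.02 and 0.01 for all tested genes. For the ligands it was 0.54 in KO1 and 0.02 in KO2, and 13 of 15 were higher in KO1. Summed ligand TPM was 751 and 489.1 in KO1 and KO2, on both sides of the 644.5, 657.4 and 648.2 TPM of the WT libraries. The ratio of KO1 to KO2 was 4.49 for Wnt16, 4.27 for Wnt10b, 4.1 for Sfrp1, 2.55 for Dkk3, 2.38 for Rnf43 and 2.02 for Axin2. It was 1.12 for Fzd7, 1.05 for Wls, 0.901 for Fzd1 and 0.877 for Znrf3. Summed marker TPM was also higher in KO1 than in KO2 for fibroblasts and dermal papilla, with the sums given above. The same held for basal (54710 and 42780 TPM), contractile and pericyte (1661 and 577.5 TPM) and immune markers (66.43 and 57.66 TPM). Acta2 alone made up most of the contractile and pericyte sums, and Krt14 a large part of the basal sums, at the levels given above. Melanocyte (8 and 11 TPM), endothelial (10.76 and 13.4 TPM) and Schwann cell sums (28.26 and 40.29 TPM) were lower in KO1. Any link of these sums to the Wnt profile was not tested.

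**Figure D5:**
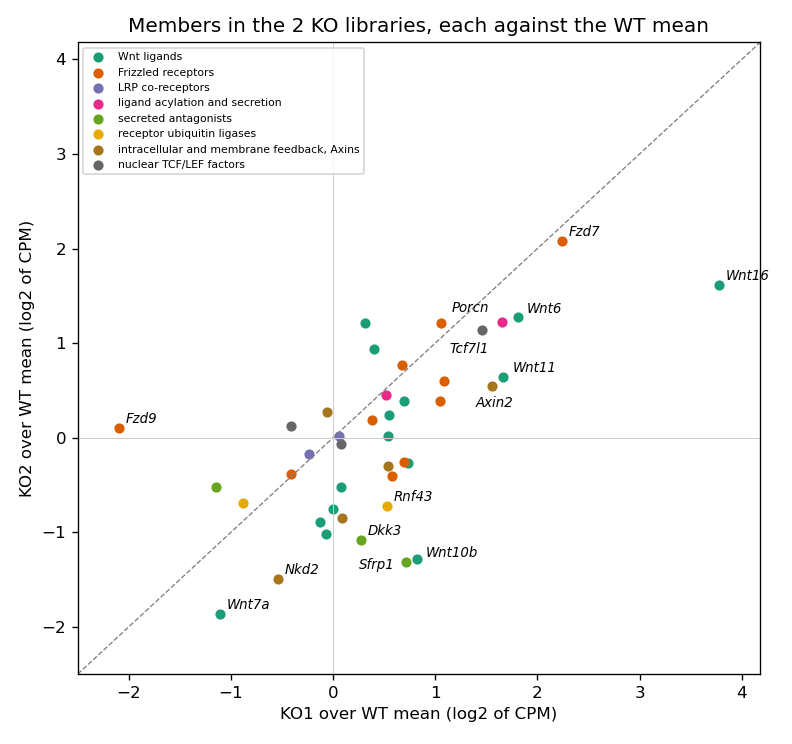
Each point is a tested member, with its log2 CPM ratio to the WT mean in KO1 on the horizontal axis and in KO2 on the vertical axis, coloured by class. The dashed line marks equal values in both. Of 42 points 31 lie below the line, Wnt16 far below it, Fzd7 lies close to it, and Wnt10b, Sfrp1, Dkk3 and Rnf43 are above WT in KO1 and below WT in KO2.

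Further genes of the pathway were followed in 5 lists. The counts of each list stand beside 20.4% of all tested genes higher and 20.4% lower. Without WT1, WT2 or WT3 the shares of all tested genes were 7.62, 8.81 and 8.68% higher and 7.6, 8.94 and 8.77% lower. Of 20 genes of signal transduction, from Dishevelled to the beta-catenin destruction complex, 3 rose, 1 fell and 16 did not pass (median log2 change 0.06). Dvl1, a Dishevelled gene that relays the signal from Frizzled, was at 58.0 and 54.5 TPM in KO and at 41.7, 41.2 and 39.5 TPM in WT, with no overlap (log2 change 0.51 ± 0.07, adjusted p = 0.00476, range over its alternatives 3.36e-06 to 0.0696). Apc, a scaffold of the destruction complex, was at 16.2 and 15.3 TPM in KO and at 20.3, 20.4 and 20.5 TPM in WT (log2 change -0.33 ± 0.07, adjusted p = 0.0159). The GSK3 inhibitor gene Frat1 and the Apc-binding gene Amer1 rose by 1.86 and 0.61 on the log2 scale. The rise of Frat1 rests on few counts, 25 and 48 in KO and 13, 9 and 8 in WT. Ctnnb1, which encodes beta-catenin, was at 254 and 227 TPM in KO and at 280, 267 and 274 TPM in WT, and did not pass. Leaving out WT1, WT2 or WT3 left 1 higher and 0 lower each time, and there were 4 higher and 6 lower without KO1 and 7 higher and 3 lower without KO2. Apc, Frat1 and Amer1 were among those lost without any WT library (adjusted p = 0.0724 to 0.0807 for Apc, 0.056 to 0.0785 for Frat1 and 0.113 to 0.132 for Amer1, with ranges over their alternatives of 0.000488 to 0.159, 0.00154 to 0.109 and 0.000583 to 0.169).

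Of 16 beta-catenin coactivator and Groucho corepressor genes 5 rose, 1 fell and 10 did not pass (median log2 change -0.03). Bcl9, a beta-catenin coactivator, was at 12.4 and 10.9 TPM in KO and at 6.28, 7.48 and 6.84 TPM in WT (log2 change 0.78 ± 0.11, adjusted p = 0.00575, range over its alternatives 4.6e-06 to 0.0566). Tle2, a corepressor gene, was at 4.96 and 2.73 TPM in KO and at 0.52, 0.53 and 0.15 TPM in WT (log2 change 3.35 ± 0.53, adjusted p = 0.00769). Both genes rose, one that aids and one that opposes beta-catenin. The adaptor Ldb1 rose by 0.53, and Hmgb1, an abundant chromatin protein gene, fell by 0.85 on the log2 scale. Leaving out any WT library left 2 higher and 1 lower, and there were 7 higher and 2 lower without KO1 and 6 higher and 3 lower without KO2. Ldb1 was lost without any WT library (adjusted p = 0.0632 to 0.0704, range over its alternatives 2.22e-05 to 0.0988).

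Of 13 tested R-spondin receptors and further modulators 6 rose, 0 fell and 7 did not pass (median log2 change 0.83). Sostdc1, a secreted inhibitor of Wnt and BMP signals, was at 20.7 and 4.11 TPM in KO and at 0.61 TPM in each WT library (log2 change 4.34 ± 0.75, adjusted p = 0.0097). KO1 was 5.05 times KO2 for Sostdc1. Lgr5, an R-spondin receptor of follicle stem cells, was at 0.38 and 0.23 TPM in KO and at 0.03, 0.04 and 0.05 TPM in WT, a rise that rests on 19 and 11 counts in KO and 1, 2 and 2 in WT (log2 change 3.08 ± 0.51, adjusted p = 0.00899, range over its alternatives 0.00232 to 0.0596). Lgr5 had enough counts to be tested in the KO libraries alone, so it could not have been called lower. Tmem132a and the glypican gene Gpc4 rose by 1.05 and 0.83 on the log2 scale. Only 1 was higher with WT1, WT2 or WT3 left out, and there were 8 higher without KO1 and 7 higher and 1 lower without KO2. Sostdc1, Tmem132a and Gpc4 were lost without any WT library (adjusted p = 0.0504 to 0.0536, 0.0575 to 0.0601 and 0.0546 to 0.0638, with ranges over their alternatives of 1.73e-08 to 0.0536, 2.54e-06 to 0.0601 and 2.29e-05 to 0.0638).

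Of 20 tested genes of non-canonical reception and planar cell polarity 8 rose, 5 fell and 7 did not pass (median log2 change 0.35). The seven-pass cadherin gene Celsr2 was at 29.4 and 27.3 TPM in KO and at 11.3, 14 and 11.1 TPM in WT (log2 change 1.25 ± 0.11, adjusted p = 0.00253). Prickle3, of the same polarity system, was at 37.6 and 31.2 TPM in KO and at 15.1, 15.5 and 12.8 TPM in WT (log2 change 1.27 ± 0.13, adjusted p = 0.00325). Both KO libraries were near each other for these genes and far above WT. The receptor-like kinase gene Ptk7 rose by 0.52, and Daam1, a formin that links Dishevelled to actin, fell by 0.51 on the log2 scale (adjusted p = 0.00519 and 0.00674, with ranges over their alternatives of 8.74e-08 to 0.0903 and 1.86e-05 to 0.0592). The counts were 4, 3 and 4 higher and 2 lower each time with WT1, WT2 or WT3 left out, 9 higher and 6 lower without KO1 and 13 higher and 5 lower without KO2.

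Of 26 tested genes known as beta-catenin targets 6 rose, 4 fell and 16 did not pass (median log2 change 0.10). The follicle stem cell factor Sox9 was at 85.1 and 83.0 TPM in KO and at 53.1, 54.3 and 54.6 TPM in WT (log2 change 0.66 ± 0.06, adjusted p = 0.00288). The ephrin receptor gene Ephb3 rose by 0.65 (adjusted p = 0.00422, range over its alternatives 1.89e-07 to 0.0531) and the hair keratin regulator Hoxc13 by 1.44, while Ppard, a nuclear receptor gene, fell by 0.50 on the log2 scale. Lgr5, given above and tested through its KO counts alone, is in this list as well and is counted among the 6 that rose. There were 4 higher each time and 0, 0 and 1 lower with WT1, WT2 or WT3 left out, 8 higher and 8 lower without KO1 and 10 higher and 8 lower without KO2. Ppard was lost without WT1 or WT2 (adjusted p = 0.0516 and 0.0502, range over its alternatives 3.42e-09 to 0.115). The list thus held genes that moved in either direction, as did the members themselves.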

How the data were processed

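RNA of 2 KO and 3 WT libraries of cultured epidermal stem cells was compared, with groups from the sample titles. RSEM 1.3.1 and GRCm38.p6 are named in the submitters' processing notes, and the authors deposited expected counts per gene. The deposited TPM values were scaled by length and library by the authors, per the file headers. The 5 FPKM columns the authors deposited were not used. The sources used here do not give the aligner or strand setting, so reads of a gene and an antisense partner cannot be told apart. By coordinates alone, on either strand and without regard to exons, 27 of 52 members overlap another RefSeq gene. RSEM in general divides reads among similar sequences by probability. Coordinates are those of the deposited table. All 52 members were matched in RefSeq, 36 with the same start and end.

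After rounding, the counts went into edgeR 4.0.16 under R 4.3.3 (filterByExpr, TMM factors 0.988 to 1.02, quasi-likelihood test, two-sided, Benjamini-Hochberg over 12957 genes, threshold 0.05). Standard errors came from the test statistic. Libraries held 20283084 to 20773407 counts. The 16 alternatives covered scaling, filters, DESeq2 1.42.0, limma 3.58.1 (voom with common or separate spread, log2(TPM + 1) and log2(TPM + 0.1)), the replicate number as a block and each library left out, with a lone KO library assumed to vary like WT. Members and lists were chosen with earlier results of these data known. Named were members past the threshold and the 2 most abundant of each class, and up to 4 genes with the smallest p of each pathway list. Krt14, Krt15, Trp63, Itga6, Cdh1, Acta2, Cspg4, Notch3, Pdgfrb, Dpt, Ctnnb1 and other members not past the threshold were named after their values were seen.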

Additional observations from a re-analysis of the deposited data

How the results depend on the processing

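Main counts were 14 members higher and 2 lower in KO. The higher count was 4 to 22 and the lower count 2 to 12 with 1 library left out. The replicate number as a block gave 4 higher and 1 lower (Znrf3 missed at adjusted p = 0.0502), against 6.21% higher and 6.13% lower of all genes. Among the named pathway genes whose calls held with each library left out, the block lost those of Dvl1, Bcl9, Lgr5, Ptk7, Daam1 and Ephb3, and of the basal markers Trp63 and Itga6. The numbers are not stated to pair libraries, and same-numbered libraries hardly deviated together (correlations of 0.00714 and 0.0676). On log2(TPM + 1) without a TPM minimum 9 were higher, against 12.1% of all genes. In the other alternatives 11 to 15 were higher and 2 lower, against 12.5 to 22% and 12.1 to 24.3% of all genes. With a separate spread per genotype 11 were higher and 2 lower, against 12.5 and 12.1% of all genes, without Wnt7b, Wnt11 and Fzd8 (adjusted p = 0.13, 0.0783 and 0.0652, with ranges over their alternatives as given above). Signs changed in 42 comparisons over 15 members that had not passed, and in 37 of these the alternative did not pass either. In 5 it passed: without KO1 the log2 changes of Wnt10b, Fzd10, Sfrp1 and Rnf43 were -1.28, -0.42, -1.33 and -0.73 (0.83, 0.59, 0.72 and 0.54 without KO2), and that of Dkk3 was 0.28 without KO2 (-1.09 without KO1). In these the KO libraries lie on opposite sides of WT, so the sign follows the library kept. The cause of the other changes was not tested. Genes under about 20 counts a library, such as Lgr5, Rspo1 and Lef1, are limited by depth.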
